A study of Bos taurus with 12 samples.

Results

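Lysyl oxidases and the genes of the elastic fibre were followed at the mRNA level in bovine intramuscular preadipocytes during adipogenic differentiation. The 10 genes are the lysyl oxidases LOX, LOXL1, LOXL2, LOXL3 and LOXL4, elastin (ELN), the fibrillins FBN1 and FBN2, and the microfibril-associated genes MFAP4 and MFAP5. Each had 1 row among the 33714 rows of the mRNA table, and all 10 were among the 15401 rows with a mean of at least 0.1 FPKM (fragments scaled to transcript length and to the mapped fragments of the library), which were tested. Newborn Qinchuan calves provided the longissimus dorsi from which the cells were isolated, and cultures were grown in DMEM-F12 with 15% fetal bovine serum. Cells at 0 d had not been induced, and cells at 3, 6 and 9 d had received IBMX at 0.5 mM, dexamethasone and insulin for 48 h, followed by insulin without the other agents. Each day had 3 libraries, 12 in all. The study calls the libraries of a day biological replicates and the days samples of the same batch of cells, and whether the replicates are separate cultures or animals is not stated. The p-values measure the spread between these libraries.

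Elastic fibres consist of a core of elastin on a scaffold of microfibrils, which are built from fibrillins and decorated by smaller glycoproteins such as the MFAP proteins. Lysyl oxidases are copper-dependent enzymes that oxidise lysine side chains in elastin and collagens, and the aldehydes formed then join into the cross-links that make these fibres insoluble. In fat tissue this matrix surrounds the growing adipocytes, and fibroblasts and smooth muscle cells are well-known sources of it.

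The labelled cell type was checked against marker genes. The 12 adipocyte markers had sums of 93.3, 104.5 and 97.5 FPKM before induction, 484, 450.2 and 512 FPKM at 3 d, 311, 351 and 329 FPKM at 6 d, and 201, 211 and 226 FPKM at 9 d. The sum was highest at 3 d, and SCD, a fatty acid desaturase, was its most abundant gene. FABP4, a fatty acid carrier of adipocytes, had means of 3.30 FPKM before induction, 91.1 FPKM at 3 d and 9.07 FPKM at 9 d. Other markers took other courses: LEP, the leptin gene, had means of 2.34, 0.07, 8.02 and 20.5 FPKM from 0 to 9 d, and PLIN4 and CIDEC were higher at 6 and 9 d than at 3 d by their means. Of the 12 markers, 6 were called higher and 2 lower (LEP and CIDEA) at 3 d vs. 0 d, beside 8.06% and 15.2% of all rows tested, and 7 were called higher at 6 d and at 9 d vs. 0 d (3.39% and 3.41% of all rows), LEP among them. Called means an absolute log2 fold change over 1 and an adjusted p under 0.05 in limma. CEBPA and CIDEC stayed under 1 FPKM in every library, and ADIPOQ, the adiponectin gene, did not pass 1.64 FPKM in any library. PPARG, whose row is merged with a neighbour, had means of 23.1, 28.9, 24.1 and 16.1 FPKM from 0 to 9 d. PLIN1, also in a merged row, had means of 25.7, 47.0, 34.4 and 33.4 FPKM on the same days. Neither PPARG nor PLIN1 was called in any comparison. The 10 preadipocyte and fibroblast markers were led by COL3A1 on every day, with DLK1 and CD34 under 1 FPKM throughout. Their sum had means of 119810, 171890, 132010 and 220220 FPKM from 0 to 9 d. Of the 9 tested 4 were called higher (PDGFRA, THY1, DCN and LUM) and 4 lower (PDGFRB, CD34, COL1A1 and PDGFRL) at 3 d vs. 0 d. Of the endothelial markers 6 of 8, and of the blood and immune markers 6 of 8, stayed under 1 FPKM in all 12 libraries, with PTPRC, ITGAM and HBB listed at 0. The blood and immune sum had a mean of 1.44 FPKM before induction and 5.54 FPKM at 3 d, where CD14, CSF1R and CD79A, 3 of the 4 tested, were called higher.

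Muscle markers moved with the days as well. The 10 smooth muscle and myofibroblast markers summed to 2688, 2532 and 2889 FPKM at 0 d, 441, 481 and 479 FPKM at 3 d, 2671, 3053 and 3052 FPKM at 6 d, and 1349, 1291 and 1247 FPKM at 9 d. The sum was low at 3 d, back in the 0 d range or above it at 6 d, and between them at 9 d. ACTA2, smooth muscle actin, was the most abundant of them at 0, 6 and 9 d but not at 3 d, where CALD1 and DES led. Its mean was 1697 FPKM at 0 d, 26.8 FPKM at 3 d, 1583 FPKM at 6 d and 597.5 FPKM at 9 d, and MYOCD was under 1 FPKM in every library. Of the 9 tested 6 were called lower at 3 d vs. 0 d, beside 15.2% of all rows, and 7 were called higher at 6 d vs. 3 d, beside 9.85%. MYH11, smooth muscle myosin, went the other way by its means, from 23.3 FPKM at 0 d to 57.2 FPKM at 3 d. Its change was not called (limma, log2 fold change 1.30 ± 0.64, adjusted p = 0.118). SMTN and CALD1 were not called at 3 d vs. 0 d either, with log2 fold changes of -0.05 and -0.45. The 9 skeletal muscle markers measured, which share DES with the smooth muscle list, summed to a mean of 880 FPKM at 0 d and 290.0, 403 and 317 FPKM at 3, 6 and 9 d, and DES was their most abundant gene. Of these 9, 6, 6 and 7 were called lower at 3, 6 and 9 d vs. 0 d, beside 15.2%, 7.97% and 7.47% of all rows. MYOD1, a myogenic transcription factor, had means of 268, 109, 47.7 and 54.6 FPKM from 0 to 9 d. The tendon and cartilage markers summed to 47.9 FPKM at 0 d and 7.35, 35.9 and 44.2 FPKM at 3, 6 and 9 d, led by MKX, with COL2A1 and TNMD under 1 FPKM throughout. Of the 6 tested 2 (MKX and ACAN) were called lower at 3 d vs. 0 d, beside 15.2% of all rows. SOX9 was lowest at 6 d, with a mean of 0.41 FPKM. SCX had means of 0.62 FPKM at 0 d and 1.17 FPKM at 3 d, a change that was not called. The sums of these lists moved on the same days as several of the elastic fibre genes, while single genes of a list differed. The part of these markers in the results was not tested. In bulk samples such as these, fewer cells of a type and less RNA per cell cannot be told apart.

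**Figure D1:**
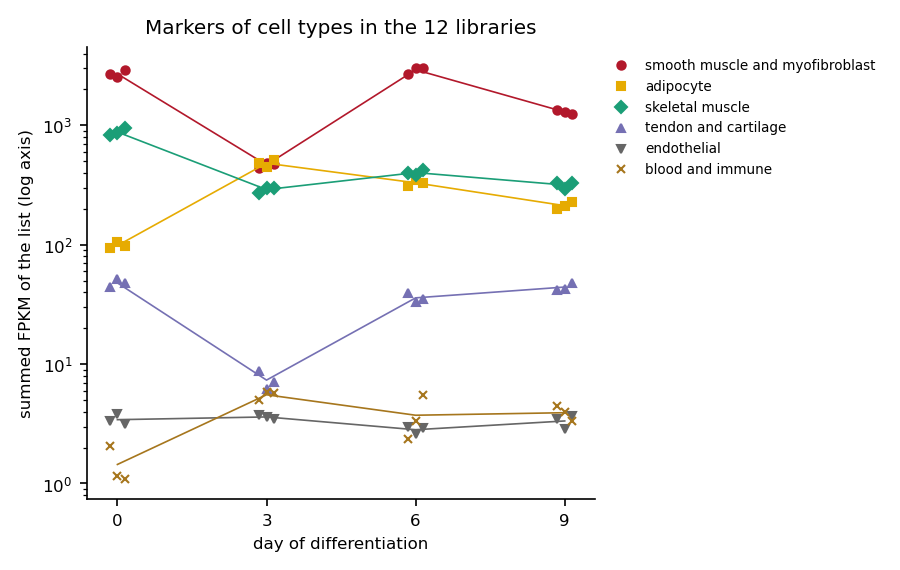
Summed FPKM of the markers of 6 cell types (log axis) against the day of differentiation, with a point for each library and lines through the means of 3 libraries. The smooth muscle and myofibroblast sum had a mean of 2703 FPKM before induction and 467 FPKM at 3 d, where the adipocyte sum was highest; the preadipocyte and fibroblast list, which COL3A1 dominates, is not drawn.

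Elastin, the protein that gives the fibre its recoil, had 8852, 9014 and 9560 FPKM in the 3 libraries at 0 d. The values were 841, 1237 and 1239 FPKM at 3 d, 5153, 5049 and 5318 FPKM at 6 d, and 4664, 4294 and 4934 FPKM at 9 d. Every 3 d library was below every library of the other days, and the 6 d and 9 d libraries lay between the 3 d and the 0 d libraries without overlap with either. The mean at 3 d was 12.1% of the 0 d mean, and those at 6 and 9 d were 56.6% and 50.7% of it. On the log2(FPKM + 0.1) scale the change was -3.07 ± 0.13 (SE) at 3 d vs. 0 d (limma, adjusted p = 2.63e-08) and 2.25 ± 0.13 at 6 d vs. 3 d (limma, adjusted p = 3.65e-07). At 9 d vs. 0 d the log2 fold change was -0.98 ± 0.13 (limma, adjusted p = 0.000255), just short of the fold threshold. Leaving out 1 library gave a range of -1.03 to -0.93. Without 0 d replicate 1 or without 9 d replicate 3 it was -1.01 and -1.03 and was called.

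Of the fibrillins, FBN1 is the main microfibril protein of postnatal tissue and FBN2 is best known from development. FBN1 was abundant on every day, from 4608 to 5060 FPKM at 0 d, 4047 to 4192 FPKM at 3 d, 2980 to 3245 FPKM at 6 d and 5114 to 5482 FPKM at 9 d. It was lowest at 6 d, when elastin had already returned in part, and none of its changes reached a factor of 2 (limma; log2 fold change at 6 d vs. 0 d -0.66 ± 0.049, adjusted p = 4.39e-06; at 9 d vs. 6 d 0.78 ± 0.049, adjusted p = 4.43e-06). FBN2 had 2.77, 3.03 and 2.83 FPKM at 0 d, 0.86, 0.70 and 0.95 FPKM at 3 d, 2.16, 2.59 and 2.32 FPKM at 6 d, and 0.49, 0.41 and 0.44 FPKM at 9 d. Its libraries were thus low at 3 d, close to the 0 d level at 6 d and lowest at 9 d, with no overlap between any of these days. FBN2 was called lower at 3 d vs. 0 d (limma, log2 fold change -1.68 ± 0.12, adjusted p = 1.26e-06) and at 9 d vs. 0 d (limma, -2.45 ± 0.12, adjusted p = 3.3e-07), with a higher call at 6 d vs. 3 d that was lost with a pseudocount of 1 (log2 fold change 1.40 with 0.1 and 0.87 with 1). The share of FBN2 in the summed FPKM of both fibrillins did not pass 0.0851% in any library.

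The microfibril-associated genes went in opposite directions. MFAP5, a glycoprotein of microfibrils also called MAGP-2, had 17.5, 18.4 and 19.1 FPKM at 0 d, 64.2, 71.9 and 66.4 FPKM at 3 d, 103, 104 and 111 FPKM at 6 d, and 75.8, 68.3 and 80.5 FPKM at 9 d. All 9 libraries of induced cells were above the 0 d libraries, with the highest values at 6 d. The log2 fold change against 0 d was 1.87 ± 0.074 at 3 d, 2.53 ± 0.074 at 6 d and 2.02 ± 0.074 at 9 d (limma, adjusted p = 1.59e-08, 1.01e-08 and 5.13e-08). MFAP4, a fibrinogen-related protein that binds elastin and fibrillin, had 3.43, 3.27 and 3.53 FPKM at 0 d, 0.19, 0.26 and 0.32 FPKM at 3 d, 0.41, 0.40 and 0.29 FPKM at 6 d, and 0.34, 0.32 and 0.38 FPKM at 9 d. It was low in every induced library, and its change at 6 d vs. 3 d was not called (limma, log2 fold change 0.39 ± 0.15, adjusted p = 0.0584). Its log2 fold change against 0 d was -3.31 ± 0.15 at 3 d, -2.92 ± 0.15 at 6 d and -2.98 ± 0.15 at 9 d (limma, adjusted p = 5.36e-08, 3.94e-07 and 4.94e-07), and the pseudocount understates the change of a gene this low.

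LOXL4 showed the largest change of the 10 genes. This lysyl oxidase-like enzyme, whose scavenger receptor domains it shares with LOXL2 and LOXL3, had 64.1, 63.5 and 66.3 FPKM at 0 d and 0.54, 0.50 and 0.61 FPKM at 3 d. It was at 39.1, 37.4 and 37.5 FPKM at 6 d and at 29.2, 27.6 and 30.1 FPKM at 9 d. The 3 d mean was 0.851% of the 0 d mean, and the 6 d and 9 d means were 58.7% and 44.8% of it, with no overlap between the libraries of any of the 4 days. The log2 fold change was -6.64 ± 0.071 at 3 d vs. 0 d (limma, adjusted p = 5.95e-12), 5.87 ± 0.071 at 6 d vs. 3 d (limma, adjusted p = 1.36e-11) and -1.16 ± 0.071 at 9 d vs. 0 d (limma, adjusted p = 1.47e-06). After rescaling the libraries by their median ratio the 9 d value was -0.95 and no longer called.

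LOX, the founding member of the family, had 455, 432 and 422 FPKM at 0 d, 133, 127 and 132 FPKM at 3 d, 281, 286 and 284 FPKM at 6 d, and 331, 351 and 377 FPKM at 9 d. Its libraries were lowest at 3 d and came back stepwise at 6 and 9 d without reaching the 0 d libraries. The log2 fold change was -1.74 ± 0.054 at 3 d vs. 0 d (limma, adjusted p = 2.86e-09) and 1.12 ± 0.054 at 6 d vs. 3 d (limma, adjusted p = 1.01e-07), and at 9 d vs. 0 d it was -0.31 ± 0.054 (limma, adjusted p = 0.00147), which did not pass the fold threshold. LOXL3 was at 281 to 290.0 FPKM at 0 d and stayed below this on the later days, at 155 to 187, 181 to 207 and 206 to 231 FPKM, with log2 fold changes against 0 d of -0.75, -0.59 and -0.42 that were not called.

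LOXL2 was the most abundant lysyl oxidase by FPKM, which is per transcript length. Its range was 5984 to 6305 FPKM at 0 d, 5559 to 6362 FPKM at 3 d, 6237 to 6557 FPKM at 6 d and 7847 to 9319 FPKM at 9 d. The 0, 3 and 6 d libraries overlapped and the 9 d libraries stood above them (limma, log2 fold change at 9 d vs. 0 d 0.50 ± 0.068, adjusted p = 0.000327, not called). LOXL1, which binds tropoelastin and is tied to elastic fibre upkeep, had 87.2 to 105 FPKM at 0 d, 62.7 to 76.9 FPKM at 3 d, 90.1 to 92.1 FPKM at 6 d and 90.0 to 99.4 FPKM at 9 d, lowest at 3 d and overlapping 0 d afterwards. The signs of small changes, LOXL2 at 3 d vs. 0 d (-0.02) and LOXL1 at 6 d vs. 0 d (-0.05), turned to 0.06 and 0.12 after rescaling by the median ratio.

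**Figure D2:**
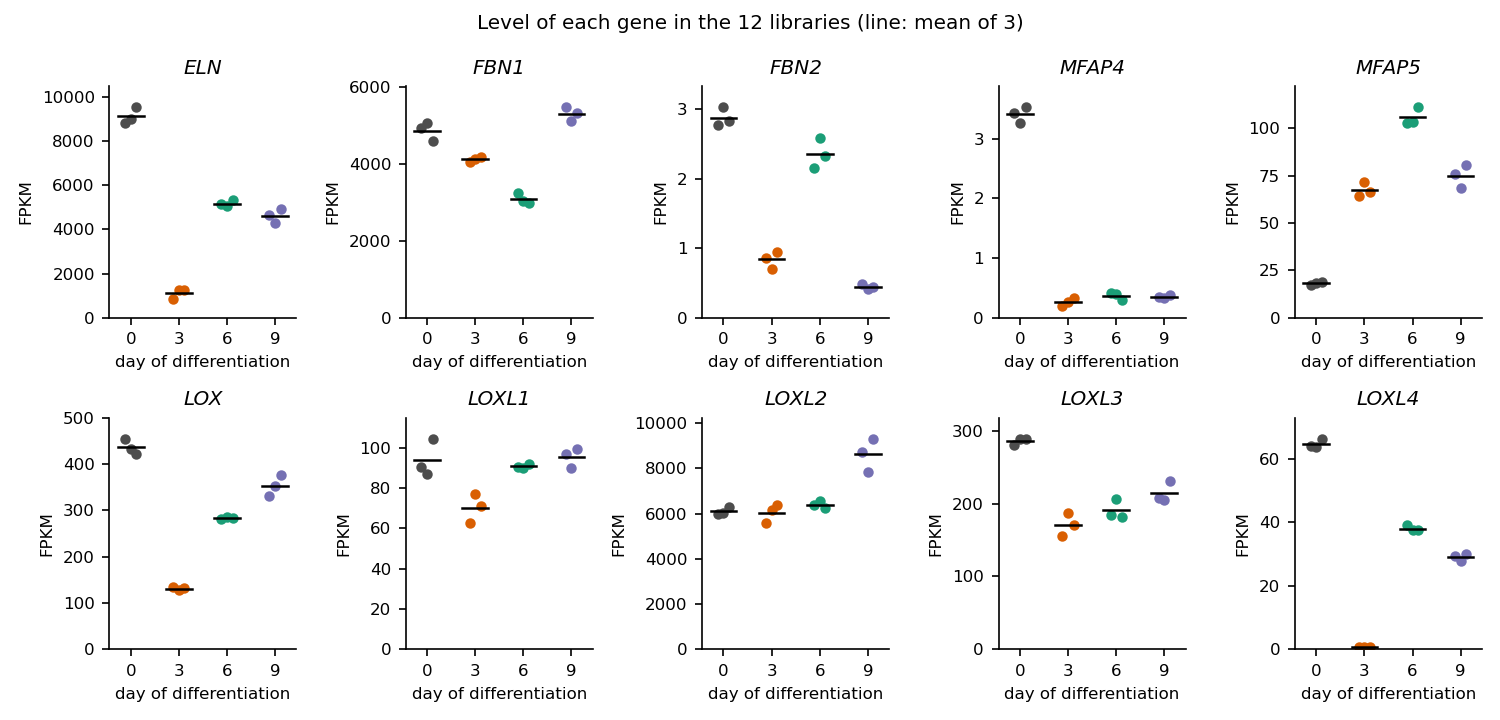
FPKM of the 10 genes against the day of differentiation on linear axes that start at 0, with a point for each of 12 libraries and a line at the mean of the 3 libraries of a day. LOXL4 and ELN dropped at 3 d to 0.851% and 12.1% of their 0 d means and returned in part at 6 d, MFAP4 stayed low and MFAP5 stayed high.

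Counted over the 10 genes, 5 were called lower at 3 d vs. 0 d (LOX, LOXL4, ELN, FBN2 and MFAP4) and 1 higher (MFAP5). Over all 15401 rows tested, 15.2% were called lower and 8.06% higher in this comparison. At 6 d vs. 0 d 1 gene was called lower (MFAP4), beside 7.97% of all rows, and 1 higher (MFAP5), beside 3.39%. At 9 d vs. 0 d 3 were called lower (LOXL4, FBN2 and MFAP4), beside 7.47%, and 1 higher (MFAP5), beside 3.41%. These 3 comparisons share the 0 d libraries. The median log2 fold change of the 10 genes was -1.21 at 3 d, -0.60 at 6 d and -0.36 at 9 d, against -0.06, -0.15 and -0.19 over all rows tested. Rescaling the libraries by their median ratio moved the median over all rows by 0.16 at 6 d and 0.19 at 9 d vs. 0 d, and the calls from 522 higher and 1227 lower to 647 and 945 at 6 d and from 525 and 1150 to 687 and 785 at 9 d.

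At 6 d vs. 3 d 4 genes were called higher (LOX, LOXL4, ELN and FBN2), beside 9.85% of all rows tested, and limma called 0 lower, beside 9.23%, with 1 at an unadjusted p under 0.05 (FBN1). At 9 d vs. 6 d 1 gene was called lower (FBN2), beside 1.89% of all rows, and limma called 0 higher, beside 2.55%, with 3 at an unadjusted p under 0.05. The median log2 fold change of the 10 genes was 0.52 at 6 d vs. 3 d and 0.01 at 9 d vs. 6 d, against -0.09 and -0.04 over all rows.

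**Figure D3:**
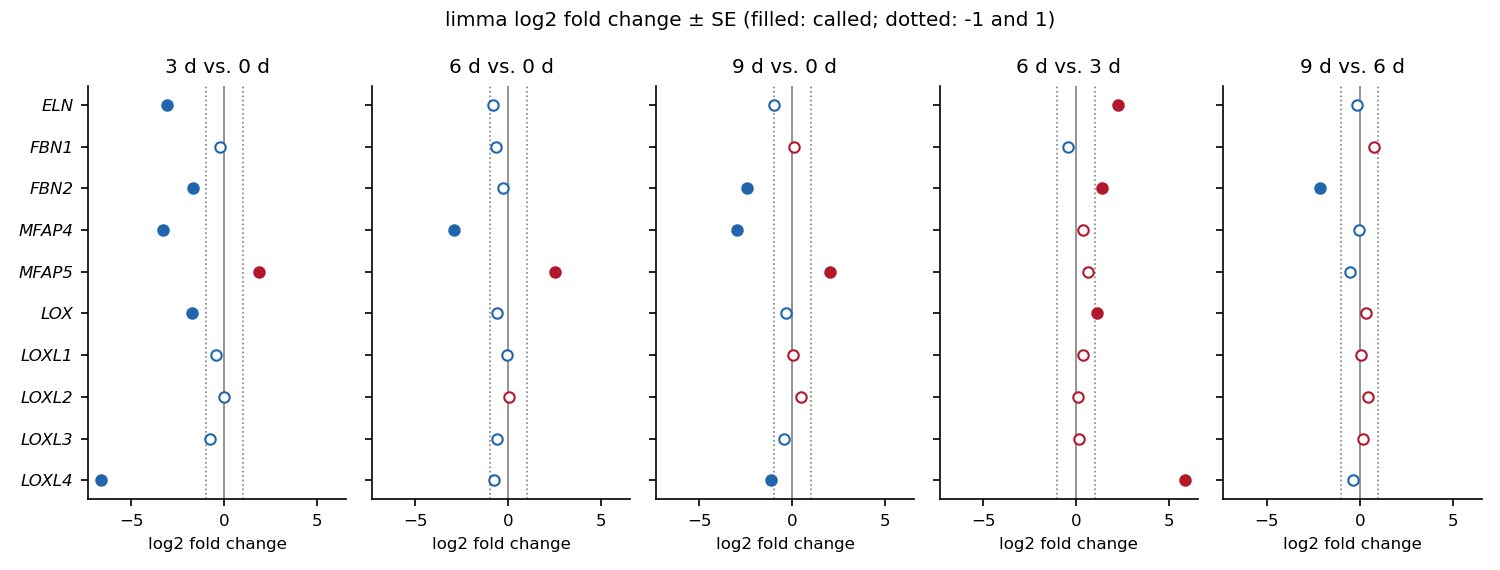
The limma log2 fold change on the log2(FPKM + 0.1) scale of the 10 genes in 5 comparisons, with bars for the SE, which are often smaller than the points; filled points were called and dotted lines mark -1 and 1. LOXL4 lay at -6.64 at 3 d vs. 0 d and at 5.87 at 6 d vs. 3 d, and MFAP5 lay above 1 in the 3 comparisons with 0 d.

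By mean FPKM over the 12 libraries LOXL2 ranked 18, ELN 22 and FBN1 26 among all rows, LOX ranked 602, and FBN2 and MFAP4 ranked 10390 and 11172. Day by day ELN ranked 13, 134, 24 and 28 and LOX 424, 1196, 608 and 499 from 0 to 9 d. FPKM levels of different genes rest on the transcript lengths of the authors' assembly, which were not checked. At 0 d the order was ELN, LOXL2, FBN1, LOX, LOXL3, LOXL1, LOXL4, MFAP5, MFAP4 and FBN2, with no overlap between the libraries of neighbours. ELN was behind LOXL2 and FBN1 at 3 d, ahead of FBN1 at 6 d and behind it again at 9 d. LOXL1 and MFAP5 at 3 d were the sole neighbours in the order of a day whose libraries overlapped.

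Within the family, LOXL2 made up 87.4% ± 0.33 (SD, n = 3) of the summed FPKM of the 5 lysyl oxidases before induction, and 94.2% ± 0.23, 91.4% ± 0.097 and 92.6% ± 0.42 at 3, 6 and 9 d. The LOX share was 6.26% ± 0.37 before induction, then 2.05% ± 0.18, 4.05% ± 0.090 and 3.8% ± 0.30 on the same days. The share of LOXL4 began at 0.926% and was 0.00860% at 3 d, then 0.543% and 0.312% on the later days. The summed FPKM itself was 6979 ± 181 before induction and 6405 ± 436, 6999 ± 173 and 9315 ± 769 at 3, 6 and 9 d.

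**Figure D4:**
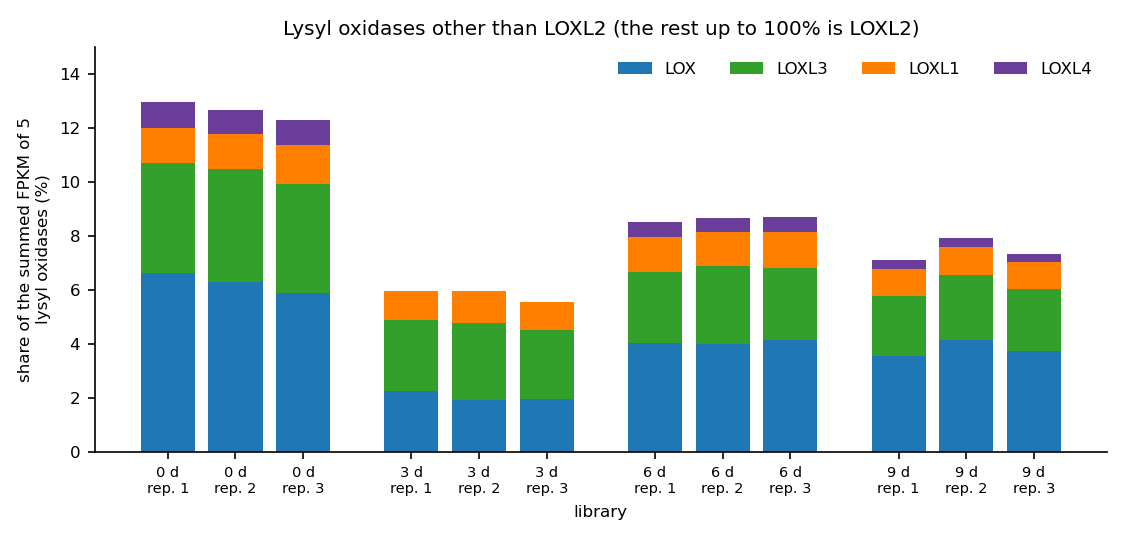
Shares of LOX, LOXL3, LOXL1 and LOXL4 in the summed FPKM of the 5 lysyl oxidases, stacked for each of the 12 libraries from 0; what is missing to 100% is LOXL2. The LOX share was lowest in the 3 d libraries, at 1.93% to 2.26%, and LOXL4 is too small to see there.

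Genes that build the elastic fibre together with the 10 were called lower more often than higher against 0 d. The 25 partners are microfibril, fibulin, EMILIN, latent TGF-beta binding, ADAMTS and ADAMTS-like proteins, with TNXB and VTN, and 22 were tested. At 3 d vs. 0 d 13 were called lower and 1 higher (15.2% and 8.06% of all rows tested). The higher gene was ADAMTSL4, named outside the rule for single genes after its values were seen. The list's median log2 fold change was -1.35 at 3 d, -1.04 at 6 d and -0.83 at 9 d vs. 0 d, with 10 called lower and 2 higher at 6 d (7.97% and 3.39% of all rows) and 8 lower and 1 higher at 9 d (7.47% and 3.41%). After rescaling by the median ratio 5 were called lower at 9 d. FBLN5, which ties elastin to integrins and is needed for fibre assembly, had 99.0, 137 and 120 FPKM at 0 d, 10.9, 11.03 and 9.44 FPKM at 3 d, 58.1, 45.5 and 49.4 FPKM at 6 d, and 91.8, 90.8 and 97.3 FPKM at 9 d. It was lowest at 3 d and stepped back up (limma, log2 fold change at 3 d vs. 0 d -3.48 ± 0.13, adjusted p = 8.46e-09).

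EFEMP2, or fibulin-4, which brings LOX to elastin, had 59.8, 60.8 and 64.6 FPKM at 0 d, 21.4, 23.8 and 25.0 FPKM at 3 d, 46.4, 47.6 and 46.9 FPKM at 6 d, and 72.4, 68.1 and 74.3 FPKM at 9 d. Its 9 d libraries were above those of 0 d, and the change at 3 d vs. 0 d was -1.40 ± 0.067 (limma, adjusted p = 6.31e-08). MFAP2, another microfibril glycoprotein, was at 111 to 134 FPKM at 0 d and at 18.3 to 22.8 FPKM at 3 d, and reached 38.5 to 47.3 FPKM at 9 d (limma, log2 fold change at 9 d vs. 0 d -1.49 ± 0.11, adjusted p = 4.7e-06). TNXB, the matrix glycoprotein tenascin-X, was lower still on later days, with 140 to 164 FPKM at 0 d, 10.2 to 11.5 FPKM at 3 d, 2.35 to 2.88 FPKM at 6 d and 1.93 to 2.40 FPKM at 9 d (limma, log2 fold change at 9 d vs. 0 d -6.06 ± 0.11, adjusted p = 2.83e-09). EFEMP1, ADAMTSL5 and LTBP4 were also called lower at 3 d, with log2 fold changes of -3.31, -3.29 and -1.95.

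**Figure D5:**
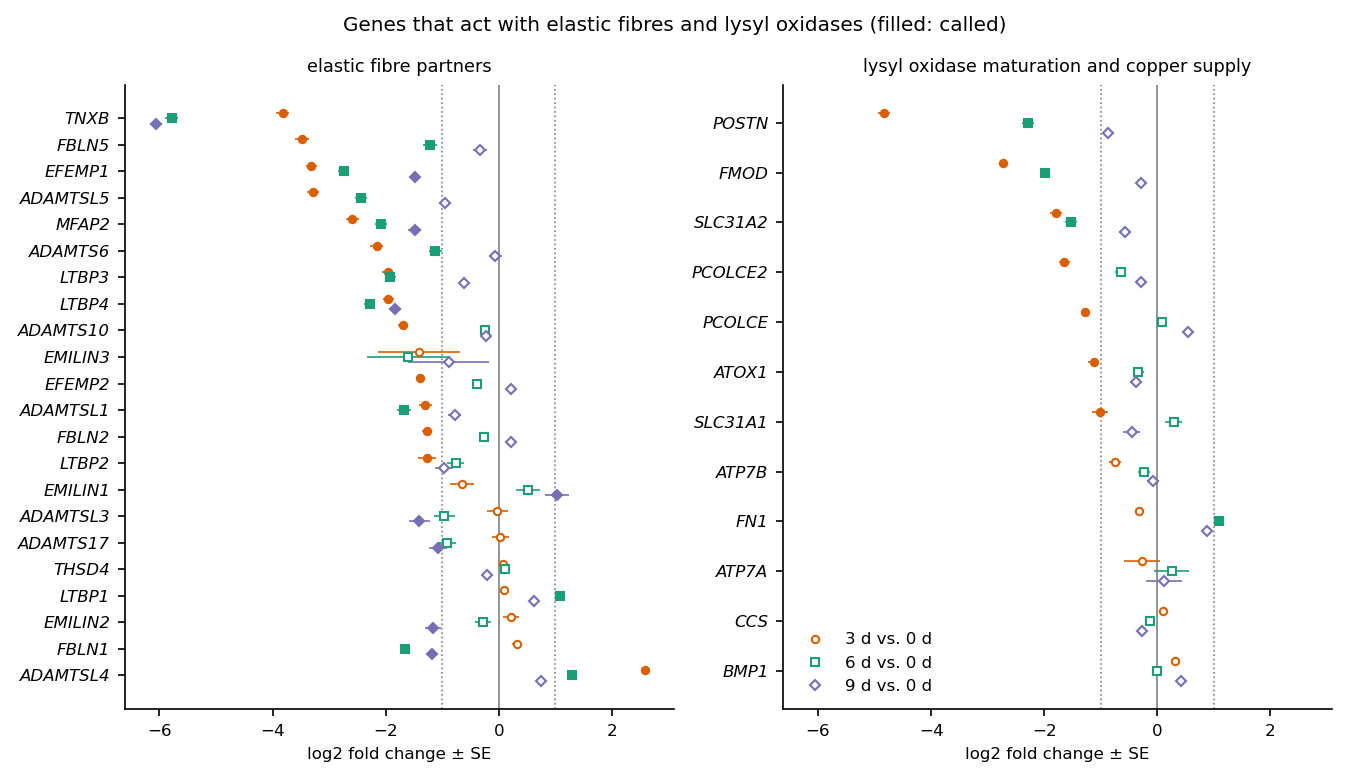
The limma log2 fold changes ± SE against 0 d at 3, 6 and 9 d for 22 elastic fibre partners and 12 genes of lysyl oxidase maturation and copper supply; filled points were called. Most points at 3 d lie left of -1, and TNXB reached -6.06 at 9 d.

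LOX and LOXL1 are secreted as proenzymes that BMP1 and related proteases cut. Periostin and fibronectin help in the cleavage of LOX, and ATP7A brings copper for lysyl oxidases into the secretory pathway. Of 14 genes of this list 12 were tested; 7 were called lower at 3 d vs. 0 d (PCOLCE, PCOLCE2, POSTN, FMOD, ATOX1, SLC31A1 and SLC31A2), beside 15.2% of all rows tested, and limma called 0 higher, beside 8.06%, with 1 at an unadjusted p under 0.05. The median log2 fold change was -1.07 at 3 d, -0.18 at 6 d and -0.28 at 9 d vs. 0 d, and 3 were called lower and 1 higher at 6 d (7.97% and 3.39% of all rows). At 9 d vs. 0 d limma called 0 lower and 0 higher (7.47% and 3.41% of all rows), with 7 lower and 3 higher at an unadjusted p under 0.05. BMP1, whose row the table merges with an uncharacterised locus, was at 270.5 to 296 FPKM at 0 d and 337 to 372 FPKM at 3 d, a log2 fold change of 0.31 ± 0.055 that was not called. POSTN, periostin, had 59.4, 52.3 and 58.1 FPKM at 0 d, 2.13, 1.70 and 1.88 FPKM at 3 d, 11.4, 10.5 and 12.7 FPKM at 6 d, and 30.7, 28.5 and 33.8 FPKM at 9 d. It was lowest at 3 d and rose again (limma, log2 fold change at 3 d vs. 0 d -4.83 ± 0.11, adjusted p = 3.16e-10). ATP7A had 239 and 220 FPKM in the other 3 d libraries but 84.2 FPKM in 3 d replicate 2, and its log2 fold change of -0.27 ± 0.32 at 3 d vs. 0 d turned to 0.21 without that library. FN1, fibronectin, was called higher at 6 d vs. 0 d, with 7044 to 7374 FPKM against 3282 to 3498 FPKM.

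Of 11 chains of collagens that lysyl oxidases cross-link 9 were tested, and at 3 d vs. 0 d 3 were called lower (COL1A1, COL1A2 and COL11A1) and 3 higher (COL4A1, COL4A2 and COL5A3), beside 15.2% and 8.06% of all rows tested, with a median log2 fold change of 0.26. At 6 d vs. 0 d 3 were called higher (3.39% of all rows) and limma called 0 lower (7.97%), with 1 at an unadjusted p under 0.05, and at 9 d 1 was called higher and 1 lower (3.41% and 7.47%). The medians were 0.35 and 0.62 at 6 and 9 d. The counts at 9 d changed with a pseudocount of 1 and after rescaling, and leaving out 1 library gave 0 to 1 called lower. COL1A1, a chain of type I collagen, had 2950, 3146 and 2957 FPKM at 0 d, 877, 987 and 958 FPKM at 3 d, 3159, 3112 and 2969 FPKM at 6 d, and 3615, 3259 and 3306 FPKM at 9 d. It was low at 3 d and within or above the range of the 0 d libraries afterwards (limma, log2 fold change at 3 d vs. 0 d -1.68 ± 0.059, adjusted p = 6.49e-09; at 6 d vs. 3 d 1.71 ± 0.059, adjusted p = 9.3e-09). COL4A1, a chain of basement membrane collagen, was at 75.5 to 77.8 FPKM at 0 d and 295 to 315 FPKM at 3 d, and remained at 135 to 148 FPKM at 9 d (limma, log2 fold change at 3 d vs. 0 d 2.0 ± 0.048, adjusted p = 5.42e-10).

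Circular RNAs of the same genes were few. Of 14070 circRNAs, 28 had a host among the 10 genes, in 5 of them: 16 of FBN1, 7 of LOXL2, 3 of LOX and 1 each of ELN and FBN2. Some listed circRNAs of FBN1 differ by 1 base at their start and may be the same circle counted again. The circRNA of ELN, of 14 exons on chromosome 25 from 33281393 to 33291035 as the authors' table lists it, had 11, 6 and 10 back-spliced reads in the 0 d libraries, then 2, 0 and 0 in those of 3 d, 2, 0 and 2 in those of 6 d, and 5, 3 and 4 in those of 9 d. The reads were highest at 0 d, like the elastin mRNA, but they are few, all circRNAs together held 5358 to 10729 back-spliced reads per library, and no test was made. The circRNAs of FBN1 summed to 22, 20, 5 and 36 reads from 0 to 9 d. Those with LOX as the listed host, of which 1 lies on the other strand and holds 5 of the reads, all in 0 d replicate 3, had 17, 0 and 18 reads in the 0 d libraries, 0, 3 and 0 in those of 3 d, 2, 0 and 9 in those of 6 d, and 6, 8 and 7 in those of 9 d, so that the libraries of a day differed by up to 18 reads.

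A miRNA family with known sites in elastin, fibrillin and collagen mRNAs, miR-29, was looked at after its values were seen. Its 3 guide strands share a seed, bases 2 to 8, in capitals here:
miR-29a: tAGCACCAtctgaaatcggtta
miR-29b: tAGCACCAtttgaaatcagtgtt
miR-29c: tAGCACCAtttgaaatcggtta
The authors list the miR-29a sequence as bta-miR-29a_L-1. Its normalized reads in their table were 15625, 16190 and 22641 in the 0 d libraries, then 21109, 18928 and 22562 in those of 3 d, 25844, 24743 and 24084 in those of 6 d, and 32940, 40005 and 45092 in those of 9 d. They overlapped between 0 and 3 d and were higher at 6 and 9 d than at 0 d (exact permutation test, two-sided, p = 0.4 at 3 d and 0.1 at 6 and 9 d, the smallest value that 3 against 3 libraries allow). miR-29b and miR-29c stayed at or below 42 raw reads in every library.

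The genes whose levels followed each gene most closely were looked up among 9996 other genes with a mean of at least 1 FPKM. Pearson's r of log2(FPKM + 0.1) over the 12 libraries was used. Rows with a LOC name were left out, so a closer one among them would not appear here. The libraries cluster by day, so that r describes a likeness of 4 day levels and carries no p. For LOX they were CAST (r = 0.9992), KLHL42 (0.9965) and FAM210B (0.9959), and for LOXL4 PLS3 (0.9982), TGFB1I1 (0.9972) and FADS3 (0.9972). For ELN they were LARP6 (0.9949), an RNA-binding protein known for binding type I collagen mRNAs, OBSL1 (0.9947) and NOV (0.9943), and for MFAP5 DDX41 (0.9814), NT5E (0.9808) and RARRES1 (0.9783). For the others the closest were CRAT with LOXL1 (0.9733), JUNB with LOXL2 (0.9661), IKBKE with LOXL3 (0.9803), SOX9 with FBN1 (0.9685), NREP with FBN2 (0.9689) and MYL4 with MFAP4 (0.9909).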

How the data were processed

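RNA of bovine intramuscular preadipocytes was sequenced at 0, 3, 6 and 9 d, with 3 libraries a day grouped by the day in their labels. The authors mapped the reads and assembled transcripts (HISAT2 and StringTie in the submitters' processing notes) and deposited FPKM for mRNAs. The labels describe poly(A) selection and the methods of the study ribosomal RNA depletion; the notes list the mouse build mm8 and the methods ARS-UCD1.2. The doses of dexamethasone and insulin differ between these sources and are not given. For circRNAs the authors deposited counts of back-spliced reads, and for miRNAs estimated counts, in which shared reads are split, and normalized reads, a signal equal to the count times 1 factor per library. lncRNAs were not used here, since no row could be tied to a gene, and neither P3H3 nor PAX7 was analysed here. FPKM hold no read counts, so that the depth behind a value cannot be read from them.

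mRNA rows with a mean of at least 0.1 FPKM over the 12 libraries entered limma 3.58.1 (R 4.3.3) as log2(FPKM + 0.1) (4 day means, eBayes with trend), with Benjamini-Hochberg adjustment over all rows tested in each of 5 comparisons. Replicates differed in at least 19013 rows, so that none was a copy. Alternatives were pseudocounts of 1 and 0.01, no filter, a mean of at least 1 FPKM, rescaling by the median ratio, the 6 libraries compared, robust estimation, a replicate block and leaving out each library. The fit was tested on simulated data. Tables were made with Python 3.11.15, pandas 2.3.3, NumPy 2.4.6 and SciPy 1.17.1.

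The 10 genes and the lists were chosen with earlier results of these data known. Named were all 10 genes; from each list, called genes, up to the 4 with the largest absolute log2 fold change at 3 d vs. 0 d and the 2 at 9 d vs. 0 d; BMP1, ATP7A, MFAP2, FBLN5 and EFEMP2; the lowest and highest markers; and the most alike genes, 3 for LOX, LOXL4, ELN and MFAP5 and 1 for the others. Other markers were named after their values were seen. Rows that merge a gene with a neighbour (BMP1, PCOLCE, CTSK, GLB1, LGALS3, PPARG and PLIN1) were kept and cannot be separated.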

Additional observations from a re-analysis of the deposited data

How the results depend on the processing

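Each day had 3 libraries, which the methods of the study call biological replicates. FPKM of different genes depend on the authors' transcript models, and no protein or cross-link was measured.

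The counts of the 10 genes were the same in every alternative within a factor of 1.5. Leaving out 1 library gave 3 to 4 genes lower at 9 d vs. 0 d and no other change of a count. LOXL4 at 9 d vs. 0 d lost its call after rescaling, and FBN2 at 6 d vs. 3 d with a pseudocount of 1. Over all rows a pseudocount of 1 gave 738 rows higher with 1446 lower at 3 d vs. 0 d, 318 with 649 for 6 d and 311 with 577 for 9 d. It gave 932 and 756 at 6 d vs. 3 d, and 211 and 157 at 9 d vs. 6 d. With a mean of at least 1 FPKM 785 were lower at 6 d and 736 at 9 d vs. 0 d.

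Small changes turned their sign after rescaling by the median ratio: LOXL1 at 6 d vs. 0 d (0.12), LOXL2 at 3 d vs. 0 d (0.063), BMP1 at 6 d vs. 0 d (0.16), GLB1 at 9 d vs. 0 d (0.13) and ITGB3 at 6 d vs. 0 d (0.082). Leaving out 1 library gave these ranges of the log2 fold change: LOXL1 -0.10 to 0.032 at 6 d vs. 0 d and -0.030 to 0.10 at 9 d vs. 0 d, LOXL2 -0.057 to 0.040 at 3 d vs. 0 d, and MFAP4 -0.18 to 0.014 at 9 d vs. 6 d. The ranges were -0.051 to 0.016 for BMP1 at 6 d vs. 0 d, -0.54 to 0.21 for ATP7A at 3 d vs. 0 d, and -0.088 to 0.13 for CTSL at 6 d vs. 3 d. They were -0.67 to 0.14 for TIMP3 at 9 d vs. 6 d, -0.13 to 0.031 for GLB1 and -0.064 to 0.31 for ITGB1 at 9 d vs. 0 d. The cause was not tested.

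Counts in the lists moved as follows. With a pseudocount of 1, elastic fibre partners called higher at 6 d vs. 0 d were 1, collagen substrates of lysyl oxidases called higher at 9 d vs. 0 d were 0 and those called lower 0, and genes of collagen lysine and proline hydroxylation and folding called lower at 9 d vs. 6 d were 1. With a pseudocount of 0.01, elastin and fibrillin degrading enzymes and their inhibitors called lower at 9 d vs. 0 d were 2. Rescaled by the median ratio, elastic fibre partners called lower at 9 d vs. 0 d were 5, genes of lysyl oxidase maturation and copper supply called higher at 9 d vs. 0 d were 1, and collagen substrates called higher at 9 d vs. 0 d were 3 and lower 0. Rescaled, degrading enzymes and their inhibitors called higher at 9 d vs. 6 d were 5, and elastin receptor and signalling genes called lower were 0 at 6 d and 0 at 9 d vs. 0 d.

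Leaving out 1 library gave 0 to 1 elastic fibre partners higher at 9 d vs. 0 d, 4 to 6 higher and 3 to 5 lower at 6 d vs. 3 d, and 0 to 1 lower at 9 d vs. 6 d. Collagen substrates called lower were 0 to 1 at 9 d vs. 0 d and 0 to 1 at 9 d vs. 6 d. Hydroxylation and folding genes were 1 to 2 higher and 1 to 2 lower at 3 d vs. 0 d. At 9 d vs. 0 d, 0 to 1 degrading enzymes and their inhibitors and 0 to 1 receptor and signalling genes were called lower. Smaller moves included 10 to 12 elastic fibre partners lower at 6 d and 7 to 10 lower at 9 d vs. 0 d. At 3 d vs. 0 d they included 6 to 7 maturation and copper supply genes and 4 to 5 receptor and signalling genes called lower. Without 1 library, 1 to 2 adipocyte markers were called lower and 2 to 3 blood and immune markers higher at 3 d vs. 0 d.

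P4HA1 at 6 d vs. 3 d (limma, adjusted p = 0.0412) lost its call without a filter and without any 1 library of these days. TIMP3 at 6 d vs. 0 d lost its call after rescaling (-0.92) and with only the 6 libraries compared.

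For pairs of the same replicate number on different days r of the residuals ran from -0.10 to 0.11 with a median of 0.02. For pairs of different numbers it ran from -0.19 to 0.18 with a median of -0.01. With 3 libraries a day, these values cannot tell whether libraries of the same number share a culture or animal. A replicate block gave 1248 rows higher with 2343 lower at 3 d vs. 0 d, 523 with 1223 for 6 d and 523 with 1160 for 9 d. The counts of the 10 genes did not change with the block, and P4HA1 at 6 d vs. 3 d was no longer called.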

Other observations

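Of 16 genes that modify and fold collagen before secretion 15 were found and tested, and at 6 d vs. 0 d 5 were called higher (PLOD1, P4HA1, P4HA3, P4HB and SERPINH1), beside 3.39% of all rows tested, while limma called 0 lower, beside 7.97%, with 0 at an unadjusted p under 0.05. The list's median log2 fold change was -0.19 at 3 d, 0.71 at 6 d and 0.40 at 9 d vs. 0 d. P4HA3, a catalytic subunit of prolyl 4-hydroxylase, had 7.80, 7.31 and 7.98 FPKM at 0 d, 161, 183 and 177 FPKM at 3 d, 101, 117 and 106 FPKM at 6 d, and 39.7, 35.4 and 36.6 FPKM at 9 d. It was highest at 3 d, when LOX, LOXL4 and ELN were lowest (limma, log2 fold change at 3 d vs. 0 d 4.48 ± 0.077, adjusted p = 7.72e-11). P4HA1 had 12.9 FPKM in 0 d replicate 3 against 47.7 and 43.2 FPKM in the other 0 d libraries, and its log2 fold change at 6 d vs. 0 d was 1.97, or 1.37 without that library.

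Among 16 enzymes that degrade elastin or fibrillin and their inhibitors 11 were tested, with 4 called lower and 1 higher at 3 d vs. 0 d (15.2% and 8.06% of all rows tested) and a median log2 fold change of -0.30. MMP2, gelatinase A, was the higher gene, with 891, 902 and 942 FPKM at 0 d and 3173, 3677 and 3406 FPKM at 3 d (limma, log2 fold change 1.91 ± 0.055, adjusted p = 1.79e-09). TIMP3, a matrix-bound inhibitor of metalloproteases, had 138, 105 and 137 FPKM at 0 d, 2.87, 2.48 and 2.41 FPKM at 3 d, 77.7, 29.2 and 89.3 FPKM at 6 d, and 59.2, 46.1 and 52.7 FPKM at 9 d. It was lowest at 3 d, and 6 d replicate 2 stood below the other 6 d libraries (limma, log2 fold change at 3 d vs. 0 d -5.55 ± 0.35, adjusted p = 4.49e-07; at 6 d vs. 0 d -1.09 ± 0.35, adjusted p = 0.0338, and -0.59 without 6 d replicate 2). The elastin receptor and integrin list had 5 of 9 genes called lower at 3 d vs. 0 d, beside 15.2% of all rows tested, with a median log2 fold change of -1.03 against -0.06 over all rows, and 5 of 9 called higher at 6 d vs. 3 d, beside 9.85%. ITGB3, the beta-3 integrin chain, was at 200 to 215 FPKM at 0 d, 22 to 24.5 FPKM at 3 d, 191 to 202 FPKM at 6 d and 129 to 142 FPKM at 9 d.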
